A study of Mus musculus with 2 samples.

Results

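Kruppel-like factors (Klf) were followed at 8 genes in the endothelium of the embryonic mouse kidney: Klf2, Klf3, Klf4, Klf6, Klf7, Klf9, Klf10 and Klf13. All probe sets that the array's annotation gives to exactly 1 of these genes were taken, which are 30 of 34945 probe sets with 1 gene, for 8 of 18193 genes. RNA came from 2 pools of cells sorted from E15.5 kidneys (embryonic day, Theiler stage 23). The mice were of the CD-1 strain and bore the transgene Tg(TIE2GFP)287Sato, in which the Tie2 (Tek) promoter drives GFP. That promoter marks endothelium and is also known to be active in some blood-forming cells and macrophages. Each pool held approximately 5 to 10 kidneys and was hybridised to 1 Affymetrix 3' expression array after 2 rounds of amplification. The pools form 1 group, called replicate 1 and replicate 2 below, so there was no contrast and no test was possible. Nothing in the labels places the pools in separate litters, and the spread between them may be partly technical. The sample titles name Flk1 (Kdr), whereas the reporter is Tie2-GFP, and the source is labelled as endothelium of the renal artery and vein, whereas the dissociation protocol describes whole kidneys.

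Klf proteins are transcription factors that bind CACCC and GC-rich elements through a zinc finger domain at their carboxyl end, and the Sp factors share that domain. In endothelium, Klf2 and Klf4 are best known as genes induced by the shear of flowing blood through the kinases Map3k3, Map2k5 and Mapk7 and the Mef2 factors. They favour a quiet, non-thrombotic vessel wall, in part through Nos3 (endothelial nitric oxide synthase) and Thbd (thrombomodulin). Several Klf genes, among them Klf2, Klf4, Klf6 and Klf10, are also early response genes that cells induce quickly when they are stimulated or handled.

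Promoter sequences are shown first for the pair of flow-responsive genes, Klf2 and Klf4, and for Klf6 and Klf13, whose probe sets above background each differed between the pools in a single direction and opposite to each other. Each run is the 250 bases before the start site, 5' to 3' on the gene's own strand, from RefSeq (GRCm38.p6), and capitals mark matches of the searched motifs on either strand. Klf2 lies at chr8:72318812-72319061 (+), Klf4 at chr4:55532476-55532725 (-), Klf6 at chr13:5861239-5861488 (+) and Klf13 at chr7:63938916-63939165 (-).
Klf2: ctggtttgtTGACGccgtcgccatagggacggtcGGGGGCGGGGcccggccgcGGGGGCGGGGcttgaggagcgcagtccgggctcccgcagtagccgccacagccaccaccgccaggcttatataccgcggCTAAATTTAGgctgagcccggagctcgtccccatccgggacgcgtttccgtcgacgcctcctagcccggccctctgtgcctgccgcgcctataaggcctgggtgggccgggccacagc
Klf4: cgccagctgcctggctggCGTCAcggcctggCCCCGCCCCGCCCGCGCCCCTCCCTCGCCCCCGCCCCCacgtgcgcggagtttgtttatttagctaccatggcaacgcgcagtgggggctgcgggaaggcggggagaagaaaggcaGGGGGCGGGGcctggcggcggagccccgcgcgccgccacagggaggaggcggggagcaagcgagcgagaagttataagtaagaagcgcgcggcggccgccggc
Klf6: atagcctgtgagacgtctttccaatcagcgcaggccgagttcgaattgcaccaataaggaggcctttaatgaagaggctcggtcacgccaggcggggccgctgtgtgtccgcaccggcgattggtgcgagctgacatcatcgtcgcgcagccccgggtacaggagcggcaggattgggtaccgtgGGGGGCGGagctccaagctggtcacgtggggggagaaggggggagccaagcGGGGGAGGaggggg
Klf13: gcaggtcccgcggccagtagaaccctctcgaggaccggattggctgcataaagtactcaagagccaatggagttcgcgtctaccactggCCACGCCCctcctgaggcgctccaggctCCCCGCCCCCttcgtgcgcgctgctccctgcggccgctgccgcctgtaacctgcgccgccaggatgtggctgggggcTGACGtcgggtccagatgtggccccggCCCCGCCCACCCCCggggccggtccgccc

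Promoters of 7 of the 8 genes were matched by symbol, and Klf10 was not. The motifs were searched on both strands and matches of 1 motif may overlap each other. A Mef2 site (CTA and TAG parted by any 4 bases) was found in the Klf2 promoter, as CTAAATTTAG from 118 to 109 bases before the start, and in none of the other 6, against 3.20% of 32851 mouse promoter windows of the same length. The Klf box (CCNCNCCC), the kind of element these factors themselves bind, was found in 6 of 7 promoters, against 45.9% of all promoters. Klf3 held 10 matches, Klf4 held 9, Klf7 held 8, Klf13 held 5, Klf2 held 4 and Klf6 held 2, many of them overlapping, and Klf9 held none. All 7 lay above the median of promoters in G and C, from 59.2% in Klf7 to 78.4% in Klf3, against a median of 52.4% over all promoters, and a box made mostly of C matches more readily in such sequence. The core of the cyclic AMP response element (TGACG) was found in 4 of 7 (Klf2, Klf4, Klf9 and Klf13), against 17.8% of all promoters. The G and C content of these windows bears on this comparison too, and promoters of like content were not compared. The Ets site CCGGAAG (6.91% of all promoters) and a serum response element core (0.0609%) were not found in these 7 windows.

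All 8 Klf genes were above background on both arrays, against 61.1% of all genes. The 8 were chosen with earlier results of these data known, so this count only describes them. Of the 8 other Klf genes measured, 4 were above background. The background limit was the 95th percentile of 84 probe sets for olfactory, vomeronasal and taste receptors, 201.3 in replicate 1 and 204.0 in replicate 2, in the arbitrary intensity units of the arrays. By probe set, 24 of 30 (80.0%) exceeded the limit on both arrays, against 55.0% of probe sets with 1 gene. The other 6 were below it on both arrays, and none passed on 1 array alone. These 6 were 4 of the 7 for Klf9, 1 of the 7 for Klf3 and 1 of the 3 for Klf13, so 3 genes had probe sets on both sides of the limit, as 44.3% of genes with several probe sets did. Because the brightness of a probe set also depends on its bases, no order of levels among the 8 genes is given.

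**Figure D1:**
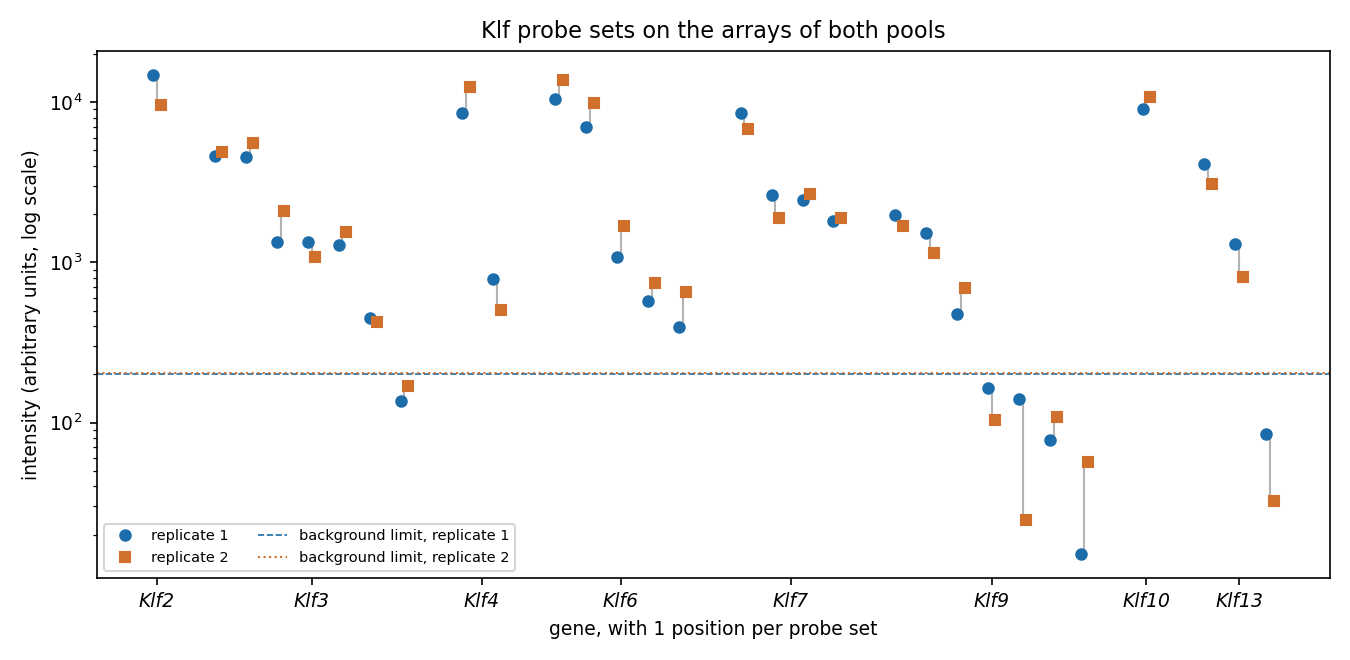
Intensity (arbitrary units, log scale) of each of the 30 Klf probe sets in replicate 1 (blue circles) and replicate 2 (orange squares), grouped by gene, with the background limits of 201.3 and 204.0 as dashed and dotted lines. The 24 probe sets above the limits are above them on both arrays, and the 6 below, 4 of them for Klf9, are below on both.

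No Klf probe set above background passed 2-fold between the pools. Differences are given as folds of the higher over the lower array, after making the median log2 difference over probe sets above background 0, which took out an offset of -0.01. The count past 2-fold was 0 of 24, against 4.94% of all such probe sets, and 6 of 24 (25.0%) passed 1.5-fold, against 21.0%, which is near the background share. Over the 24 probe sets the median log2 difference (replicate 1 minus replicate 2) was -0.10, and 10 were higher in replicate 1 and 14 in replicate 2. The spread of this difference over all probe sets above background was 0.51 (SD), and Klf values ran from -0.71 to 0.68. Probe sets of 1 gene are not independent, and with 2 arrays none of these differences has a replicate check. Represented by the probe set of highest mean log2 intensity, 4 genes were higher in replicate 1 (Klf2, Klf7, Klf9 and Klf13) and 4 in replicate 2 (Klf3, Klf4, Klf6 and Klf10).

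**Figure D2:**
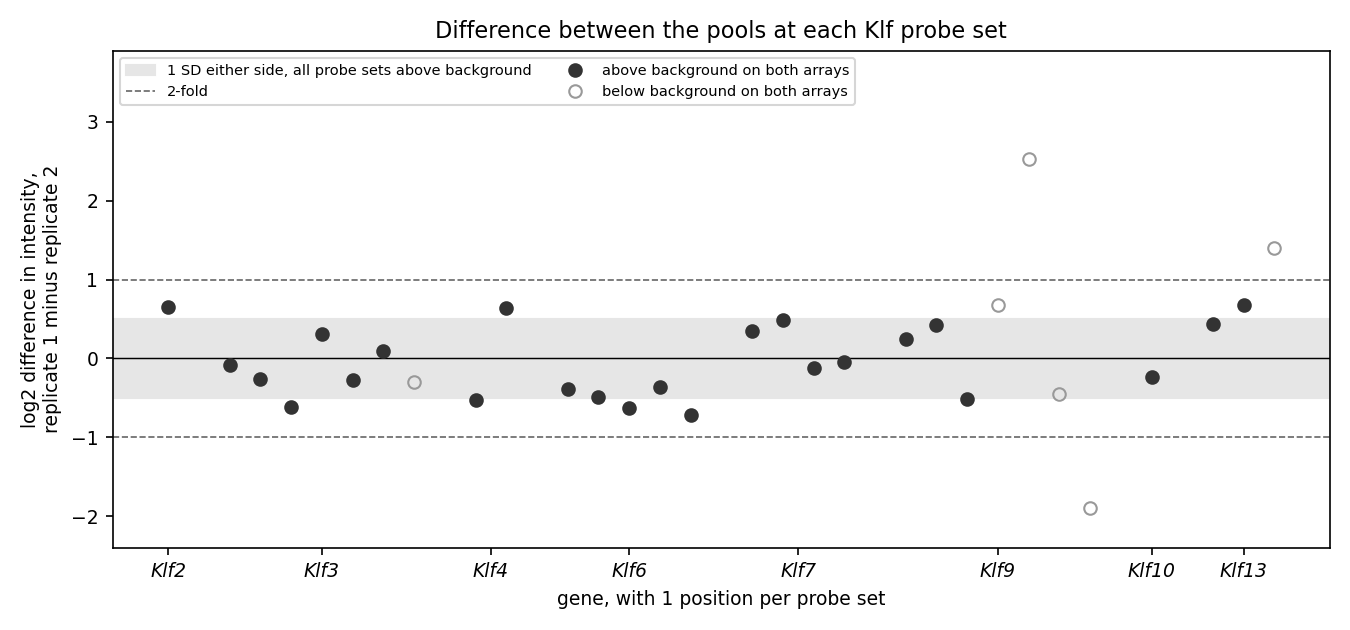
Log2 difference in intensity, replicate 1 minus replicate 2, at each Klf probe set (1 position each), filled where above background on both arrays and open where below on both. The grey band is 1 SD (0.51) either side of 0 over all probe sets above background, and dashed lines mark 2-fold. All 24 filled points lie within the dashed lines, and the 5 of Klf6 all lie below 0.

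Klf2, which keeps endothelium quiescent under flow and without which mouse embryos die with failing vessels, has 1 probe set (1448890_at). It gave 14821 in replicate 1 and 9537 in replicate 2, a 1.57-fold higher value in replicate 1. Pairs of intensities without a label below are in that order, replicate 1 and then replicate 2. Klf4, its close relative and also a factor used to reprogram cells to pluripotency, has 2 probe sets that both exceeded the limit and went opposite ways. Probe set 1417394_at gave 8527 and 12398, 1.44-fold higher in replicate 2. Probe set 1417395_at gave 782.0 and 505.0, 1.56-fold higher in replicate 1. The annotation ties both Klf4 probe sets to the same transcript record, so the arrays give no single direction for Klf4 between the pools.

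Klf6, a factor of the response to vessel injury that is known to activate the endoglin gene, was higher in replicate 2 at 5 of 5 probe sets. Its brightest probe set (1433508_at) gave 10411 in replicate 1 and 13772 in replicate 2, a 1.31-fold difference. The folds of the 5 probe sets ran from 1.29 to 1.64, the last at 1418280_at with 396.7 and 655.2. Of 1992 genes with at least 3 probe sets above background, 31.9% had all of them on the same side, as Klf6 did. The share among genes with 5, as Klf6 has, was not computed. Probe sets 1447448_s_at (6982 and 9913) and 1459718_x_at (1073 and 1674) come from 1 transcript record, and their suffixes mark probes that can match other transcripts. Klf10, first described as an early gene induced by TGF-beta, has 1 probe set (1416029_at), which gave 9029 and 10712, 1.18-fold higher in replicate 2.

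Klf3, a repressor that works through the corepressor Ctbp, had 6 of 7 probe sets above background, 2 of them higher in replicate 1 and 4 in replicate 2. Its brightest, 1454666_at and 1429360_at, gave 4551 and 5525, and 4577 and 4878. The widest difference was at 1441200_at, with 1346 and 2081 (1.53-fold higher in replicate 2), and the narrowest at 1429360_at (1.06-fold). Probe set 1431630_a_at, with 1337 and 1085, went the other way (1.24-fold higher in replicate 1). The probe set below the limit, 1458487_at, gave 136.9 and 169.9.

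Klf9 and Klf13 are repressors that recruit the Sin3a corepressor, and Klf9 is induced by thyroid hormone and glucocorticoids. For Klf9, 3 of 7 probe sets were above background: 1428288_at with 1969 and 1682, 1456341_a_at with 1518 and 1141, and 1428289_at with 479.1 and 690.9. The first pair were higher in replicate 1 by 1.18-fold and 1.34-fold, and the last was higher in replicate 2 by 1.43-fold. The 4 below the limit gave between 15.2 and 164.8 in replicate 1 and between 24.7 and 108.1 in replicate 2. Probe set 1452723_at (141.2 and 24.7), is tied to the same transcript record as 1428288_at and 1428289_at. With the median of its probe sets in place of the brightest, Klf9 was the 1 gene of the 8 not above background.

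Klf13, known in T cells as an activator of the chemokine gene Ccl5, was higher in replicate 1 at both probe sets above background. Probe set 1436316_at gave 4119 and 3070 (1.35-fold) and 1432543_a_at gave 1296 and 814.7 (1.61-fold). The remaining probe set, 1456030_at, was below the limit with 84.9 and 32.4. Klf7, known for its part in the growth of axons and in sensory neurons, was above background at 4 of 4 probe sets, all tied to 1 transcript record. Of these, 1449439_at (8555 and 6803) and 1419356_at (2613 and 1884) were higher in replicate 1, whereas 1419354_at (2449 and 2680) and 1419355_at (1814 and 1891) were higher in replicate 2. The folds for Klf7 ran from 1.03 to 1.40.

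The rest of the family was counted in the same way, other than Klf8, Sp2 and Sp9, which were not analysed here. Of 8 other Klf genes, 4 were above the limit (50.0%), and of 7 Sp genes 3 were (42.9%), beside 61.1% of all genes. Together these are 7 of 15, a count that was 11 of 15 with a limit of 100 on both arrays, which 72.7% of all genes passed. Klf11, a relative of Klf10, gave 2506 and 2564, and Klf16 gave 853.1 and 1034. Klf12 passed with 2 of 5 probe sets, at 511.3 and 770.7 for its brightest, and was higher in replicate 2. Klf17 passed narrowly with 1 of 3 probe sets (234.6 and 222.7).

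The other Klf genes not above background on both arrays were Klf1, Klf5, Klf14 and Klf15. Klf1, the erythroid Klf factor, gave 132.4 and 173.5. Klf5, known mainly from epithelia, passed in replicate 2 and not in replicate 1 (200.2 and 290.5 for its brightest probe set), as did Klf14 (173.9 and 314.0). Klf15 gave 8.55 and 12.5. Among Sp genes, the ubiquitous factor Sp1 gave 8470 and 8840, Sp3 gave 225.8 and 655.1 (2.87-fold higher in replicate 2) and Sp7 gave 209.1 and 236.2. Sp3 passed narrowly in replicate 1 and Sp7 on both arrays, each with 1 probe set, so the fold of Sp3 rests on a value near the limit. Below the limit on both arrays were Sp4 (45.6 and 72.9), Sp5 (6.72 and 35.4), Sp6 (200.5 and 198.2) and Sp8 (31.9 and 27.3).

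**Figure D3:**
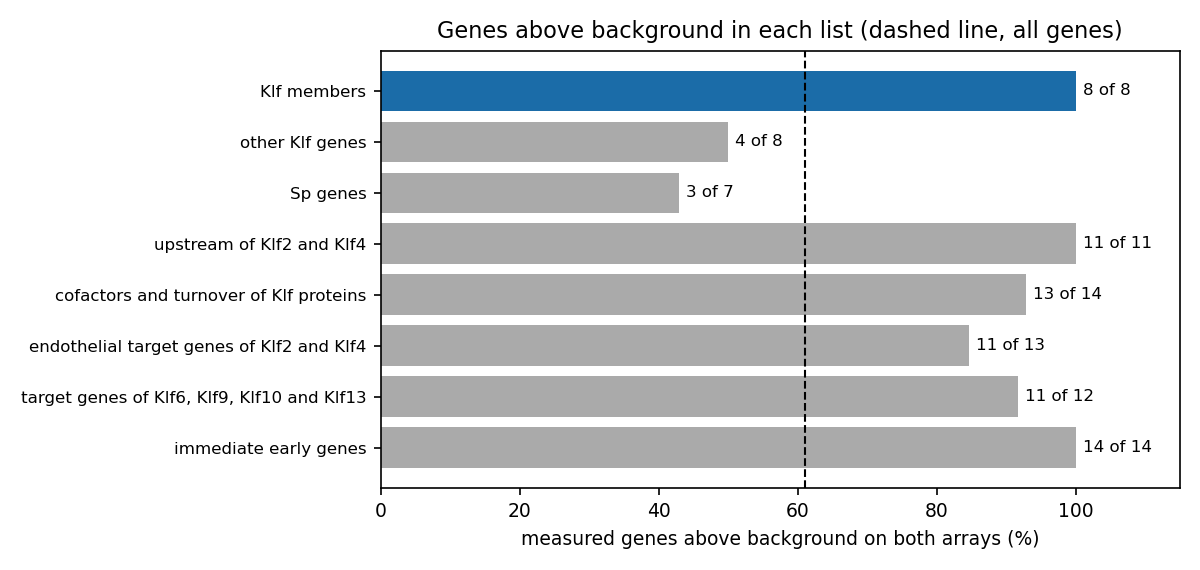
Share of each list (percent of the genes measured) that exceeded the limits of both arrays (bars, Klf members in blue, counts at the right), with the 61.1% of all genes as a dashed line. The Klf members reached 8 of 8, the other Klf genes 4 of 8 and the Sp genes 3 of 7.

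Genes that act upstream of Klf2 and Klf4 were all above background (11 of 11), beside 61.1% of all genes. Map3k3, the first kinase of the cascade, gave 3233 and 1158 at its brightest probe set (2.82-fold higher in replicate 1). Its other 2 probe sets gave 1750 and 1059, and 436.1 and 496.6, so the 3 did not go the same way. Map2k5, the next kinase, gave 3031 and 3980, and Mapk7 (Erk5), the last, gave 1065 and 573.0 (1.88-fold higher in replicate 1). Ccm2, part of the cerebral cavernous malformation complex that restrains Map3k3, gave 9517 and 4707 (2.04-fold) and was higher in replicate 1 at 3 of 3 probe sets. Krit1 (683.9 and 739.3) and Pdcd10 (6892 and 9143), the partners of Ccm2, were higher in replicate 2. Mef2c, whose product can bind sites of the kind printed above for Klf2, gave 21330 and 23834. Of the 11 genes, 2 passed 2-fold between the pools at their brightest probe sets, against 4.78% of all genes. The median log2 difference was -0.10, against a median of 0.02 for all genes.

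Cofactors and turnover factors of Klf proteins were above background in 13 of 14 cases, beside 61.1% of all genes. The Klf3 corepressors Ctbp1 (33298 and 29091) and Ctbp2 (3661 and 3160) were among them, and the cofactor Fhl3 was not (9.93 and 23.3). Sin3a, the corepressor of Klf9 and Klf13, gave 6344 and 4243 (1.51-fold higher in replicate 1). None of the 13 passed 2-fold at their brightest probe sets, near the 4.78% of all genes that did. Wwp1, of the same list, gave 2093 and 2672 at its brightest probe set (1.26-fold higher in replicate 2). Another Wwp1 probe set above background did pass 2-fold, with 1041 and 4825 (4.59-fold higher in replicate 2). Its remaining probe set gave 869.0 and 1219 (1.39-fold higher in replicate 2).

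Endothelial target genes of Klf2 and Klf4 were above background in 11 of 13 cases, beside 61.1% of all genes. Nos3 gave 4952 and 2456, 2.04-fold higher in replicate 1. Thbd gave 1176 and 962.0, 1.23-fold higher in replicate 1. The other 9 genes above background were all higher in replicate 2, among them S1pr1, the sphingosine-1-phosphate receptor (1132 and 1407), and Edn1, endothelin 1, which Klf2 is known to repress (264.9 and 525.4, 1.97-fold). The median log2 difference of the 11 genes was -0.46, against 0.02 for all genes above background. The list was not split into induced and repressed genes, so this median gives no direction of Klf activity. The part of Klf2 and Klf4 in these differences was not tested. Sele (132.4 and 160.4), the selectin of activated endothelium, and Ass1 (138.6 and 113.2), an enzyme of arginine synthesis, were below the limit on both arrays.

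Of 12 targets listed for Klf6, Klf9, Klf10 and Klf13, 11 were above background, beside 61.1% of all genes. Eng (endoglin), a target of Klf6, gave 14009 and 8907, 1.59-fold higher in replicate 1, the side opposite to Klf6. Tgfb1, also a target of Klf6, gave 1265 and 540.4 at its brightest probe set, 2.36-fold higher in replicate 1. Its other probe set gave 335.1 and 290.7 (1.16-fold). The receptor Tgfbr1 gave 8448 and 12132 at its brightest. Its others gave 4063 and 2545 (1.61-fold higher in replicate 1) and 213.4 and 544.1 (2.53-fold higher in replicate 2), so they did not go the same way. Ccl5, the T cell target of Klf13, passed in replicate 2 and not in replicate 1, at 49.9 in replicate 1 and 252.7 in replicate 2. The median log2 difference of the 11 genes was 0.18, with 6 higher in replicate 1 and 5 in replicate 2. This list was likewise not split into induced and repressed genes. The part of the Klf factors in these differences was not tested.

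**Figure D4:**
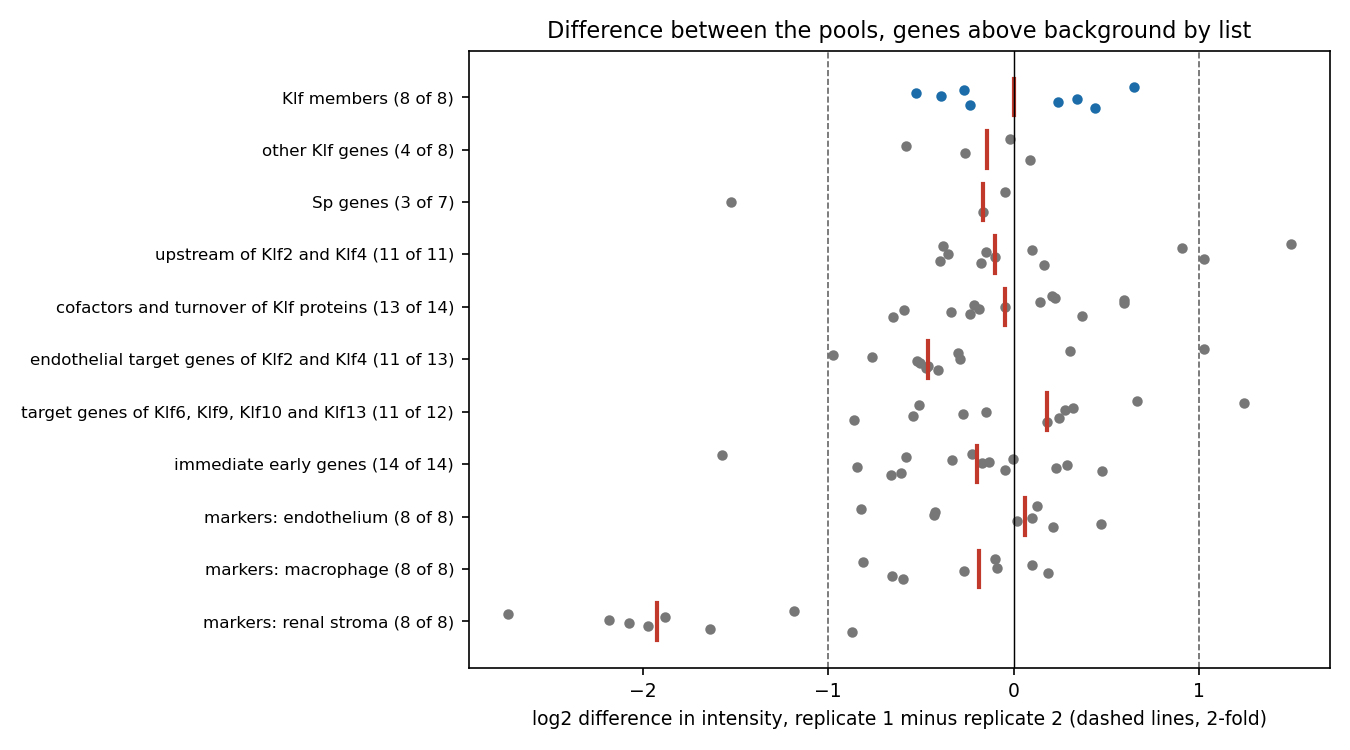
Difference between the pools on the log2 scale (replicate 1 minus replicate 2) for genes above background (dots, Klf members in blue), with the median of each list (red marks), lines at 2-fold (dashed) and the number above background of those measured beside each name. The Klf members lie within 2-fold on both sides of 0, and the renal stroma markers all lie on the replicate 2 side, with a median of -1.93.

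Immediate early genes, which dissociation can induce as it can Klf2, Klf4, Klf6 and Klf10, were above background in 14 of 14 cases, beside 61.1% of all genes. Of the 14, 11 were higher in replicate 2, as were 47.9% of all genes above background. Fos gave 38261 and 45027, Fosb gave 1004 and 3020 (2.98-fold higher in replicate 2) and Jun gave 11640 and 17543. The median log2 difference of the list was -0.20, against 0.02 for all genes above background. Klf6 and Klf10 were higher in the same pool as most of these genes, Klf2 was higher in the other, and the Klf4 probe sets were split (1.44-fold higher in replicate 2 and 1.56-fold higher in replicate 1). The part of handling in the Klf values was not tested.

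Markers of several cell types were present in the sort, and a Klf intensity cannot be assigned to 1 of them. Each count of markers above background stands beside 61.1% of all genes. In bulk RNA, fewer cells of a type and less RNA per cell cannot be told apart. All 8 endothelial markers were above background, with Cdh5 at 22435 and 20733, Pecam1 at 1257 and 2247, Tek at 15908 and 21499 and summed intensities of 117384 and 114082. All 8 macrophage markers were as well, with Csf1r at 34030 and 36806, Adgre1 at 4305 and 7632, Cd68 at 2358 and 2218 and sums of 75892 and 91459, and Klf2, Klf4 and Klf6 are also known from macrophages. All 8 markers of renal stroma were above background and higher in replicate 2, with Foxd1 at 775.4 and 1775, Pdgfra at 719.8 and 4811, Dcn at 992.6 and 3690 and sums of 8763 and 31781. T and B cell markers reached 1 of 5, podocyte markers 0 of 2 and nephron progenitor markers 1 of 4, with Cd3e (11.7 and 14.8), Nphs1 (89.1 and 100.2) and Cited1 (11.7 and 13.6) below the limit. Erythroid markers reached 5 of 6, with sums of 58139 and 50507 that were mainly those of Hbb-y (55397 and 48789), while Klf1 was below the limit. The globin Hbb-bh1 was 2.44-fold and Hba-x 2.00-fold higher in replicate 1, whereas Alas2, an enzyme of haem synthesis, was 1.40-fold higher in replicate 2. Ureteric bud markers reached 3 of 7. The part of macrophages and stroma in the Klf differences between the pools was not tested.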

How the data were processed

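The authors deposited 1 intensity value per probe set for each of 2 Affymetrix 3' expression arrays, on a linear scale and with no detection calls used here. The submitters' processing notes name GCOS, with no version. The mean with 2% of values trimmed from each end was 1500.01 on both arrays, so they had been scaled before deposit. The study's methods describe another array type and a single amplification, and were not taken as those of these arrays. Of 45101 probe sets, 34945 had 1 gene in the platform annotation, 932 had several, 9160 had none and 64 were controls. RefSeq's gene table for GRCm38.p6 held the identifiers of 34741 of these, with 0 symbols changed.

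Analyses used Python 3.11.15, numpy 2.4.6 and pandas 2.3.3. A probe set was above background when it exceeded, on both arrays, the 95th percentile of 84 sensory receptor probe sets (76 genes). Where a gene had several probe sets, the one with the highest mean log2 intensity represented it. Log2 differences between the arrays were centred on their median over all probe sets above background, and the procedure was tested on simulated data. Since all samples form 1 group, no test was made and no p-value is given, and the number of arrays limits the precision. The members and gene lists were chosen with earlier results of these data known, and lists are described by counts and medians only. The text names all Klf and Sp genes measured. From each other list it names the first 3 measured genes, up to 3 on the other side of the limit and up to 3 past 2-fold. Genes named beyond these (Krit1, Pdcd10, Mef2c, Sin3a, Wwp1 and Edn1) were chosen after their values were seen. Marker lists other than those of endothelium, macrophages and stroma are given by counts with a few examples. Alternatives covered the limit, the choice of probe sets, the scaling, the fold and each array alone.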

Additional observations from a re-analysis of the deposited data

How the results depend on the processing

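All 8 Klf genes stayed above background with a limit at the 99th percentile, at 100 or at 2 times the 95th percentile, on either array alone (8 of 8 each) and with only probe sets free of a letter suffix. With probe sets summarised by their median per gene 7 did, Klf9 being the exception. The count of probe sets above background was 24 on either array alone, 26 at a limit of 100, 23 at the doubled limit and 17 of 21 without suffixed probe sets. No probe set above background passed 2-fold under any limit, choice of probe sets or scaling tried, and 6 passed a fold of 1.5. The other Klf and Sp genes above background numbered 11 of 15 at a limit of 100, where 72.7% of all genes passed, and 7 of 15 at the main limit, where 61.1% did. The median Klf difference ran from -0.14 with quantile normalization to -0.06 without suffixed probe sets. The sign of each gene's difference was kept without centring and with quantile normalization, which were added for single genes after seeing the data. Differences could not be computed from a single array. No paired analysis was possible because there is 1 group. Intensity near the limit and the number of arrays bound what can be said of dim probe sets.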
